A study of Mus musculus with 6 samples.

Results

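Mesenchymal cells of the injured Achilles tendon at 21 days post injury (dpi) were compared between the *Gli1*+ and the *Gli1*- sort. A cell was taken as mesenchymal when its barcode held at least 1000 unique molecular identifiers (UMIs), at least 200 genes and at most 5% mitochondrial UMIs, with at least 1 UMI of *Pdgfra*, a receptor of connective tissue cells, and none of *Ptprc* or *Cdh5*, which mark leukocytes and vessel lining. This gave 5805 *Gli1*+ and 5626 *Gli1*- cells, 11431 of the 63329 kept cells of the series. Both libraries came from Gli1-CreERT2; Ai9 mice, in which tamoxifen given before surgery switches on tdTomato in cells that use the *Gli1* locus at that time and in their progeny. The groups shared genotype, tamoxifen and tenotomy, and differed in the sorted label. Each label was also its own library, so label and library cannot be told apart. The labels name 24 mice in all and 8 for each of 3 conditions (uninjured, 7 dpi and 21 dpi), give no age, and do not tie cells to mice. Each sort at each time was 1 library, so no test between sorts was possible, and every interval is a 95% interval for counting error only (exact Poisson for levels, exact binomial for shares and ratios). In this tracing the label records past use of the locus, and the *Gli1*- sort holds every cell the label missed.

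*Gli1* encodes a zinc finger factor that hedgehog signaling switches on, and its reporter marks progenitor cells around vessels, in periosteum and in the sheath of tendons. After tenotomy the mouse Achilles tendon forms ectopic bone through a cartilage template, a process called heterotopic ossification (HO). Fibroblasts of the sheath, tenocytes, cartilage cells and bone-forming cells are all mesenchymal, and their matrix genes tell them apart.

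The regulatory sequence upstream of 2 genes, of bone and of hypertrophic cartilage, is shown because both lay among the highest *Gli1*+ to *Gli1*- ratios below, yet rested on a few cells each. *Bglap* encodes osteocalcin, a protein of bone matrix, and *Col10a1* the collagen of hypertrophic cartilage. The 250 bases before each RefSeq start (GRCm38.p6) lie at chr3:88384467-88384716 on the minus strand for *Bglap* and at chr10:34389731-34389980 on the plus strand for *Col10a1*. Capitals mark the core bound by Runx factors, TGTGGT or its reverse complement ACCACA.
Bglap: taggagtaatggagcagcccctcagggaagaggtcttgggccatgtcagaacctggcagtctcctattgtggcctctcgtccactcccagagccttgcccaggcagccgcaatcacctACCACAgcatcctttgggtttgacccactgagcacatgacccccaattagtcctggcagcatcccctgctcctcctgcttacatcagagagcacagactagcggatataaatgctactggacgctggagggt
Col10a1: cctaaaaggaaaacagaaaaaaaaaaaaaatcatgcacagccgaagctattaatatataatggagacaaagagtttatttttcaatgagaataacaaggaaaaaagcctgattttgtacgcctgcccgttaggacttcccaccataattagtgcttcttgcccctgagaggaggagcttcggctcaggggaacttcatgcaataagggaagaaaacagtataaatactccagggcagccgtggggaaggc
The core was found once upstream of *Bglap*, at bases -132 to -127 on the opposite strand, and not in the window of *Col10a1*. On either strand, 4614 of 32851 promoter windows of this length (14.0%) held it. Among the 4 genes of the bone and hypertrophic lists that were higher in *Gli1*+ cells, 3 had a RefSeq window and 1 of these held the core. The Sox core AACAAT (reverse complement ATTGTT), present in 9.42% of windows, was found in 0 of the 6 windows available for the 9 cartilage genes that were lower.

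The mesenchymal cells held 65877546 UMIs in the *Gli1*+ and 61590105 UMIs in the *Gli1*- library, with medians of 9946 and 9613 UMIs and of 3165 and 3122.5 genes per cell. They made up 54.3% of the kept *Gli1*+ and 46.7% of the kept *Gli1*- cells. Cells with *Xist* and no Y-linked UMI made up 94.3% and 95.1% of them, although the labels state equal numbers of each sex. Endothelial cells (*Cdh5* without *Pdgfra* or *Ptprc*), which served as a background for RNA outside its own cells, numbered 329 and 1844. All 10 fibroblast and tendon markers, from *Pdgfra* and *Col1a1* to *Tnmd*, were within 0.58 of 0 on the log2 scale, with a median log2 ratio of 0.08 and a summed level of 50486 and 45846 counts per 1000000 UMIs (CPM). Of these, *Pdgfra* was required of every cell by the rule, so its likeness is partly given by the selection.

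The sorts were close to each other across the transcriptome. Of 8655 genes at 10 CPM or more in either library, 7921 (91.5%) lay within 0.26 of 0 on the log2 scale, and the median log2 ratio of *Gli1*+ over *Gli1*- was 0.00. A gene is called past the fold where the log2 ratio was at least 0.58 either way, the threshold of the study's methods. By this rule 73 genes (0.843%) were higher and 126 (1.46%) were lower in the *Gli1*+ cells, 2.3% together. In summed counts, fewer cells of a type and less RNA per cell cannot be told apart. Of the 73 higher genes, 34 stood 4 times or more higher in the other kept cells of the *Gli1*+ library than in its mesenchymal cells, as did 28 of the 126 lower genes in the *Gli1*- library. Left out by name were 1 and 8 more, which leaves 38 and 90.

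**Figure D1:**
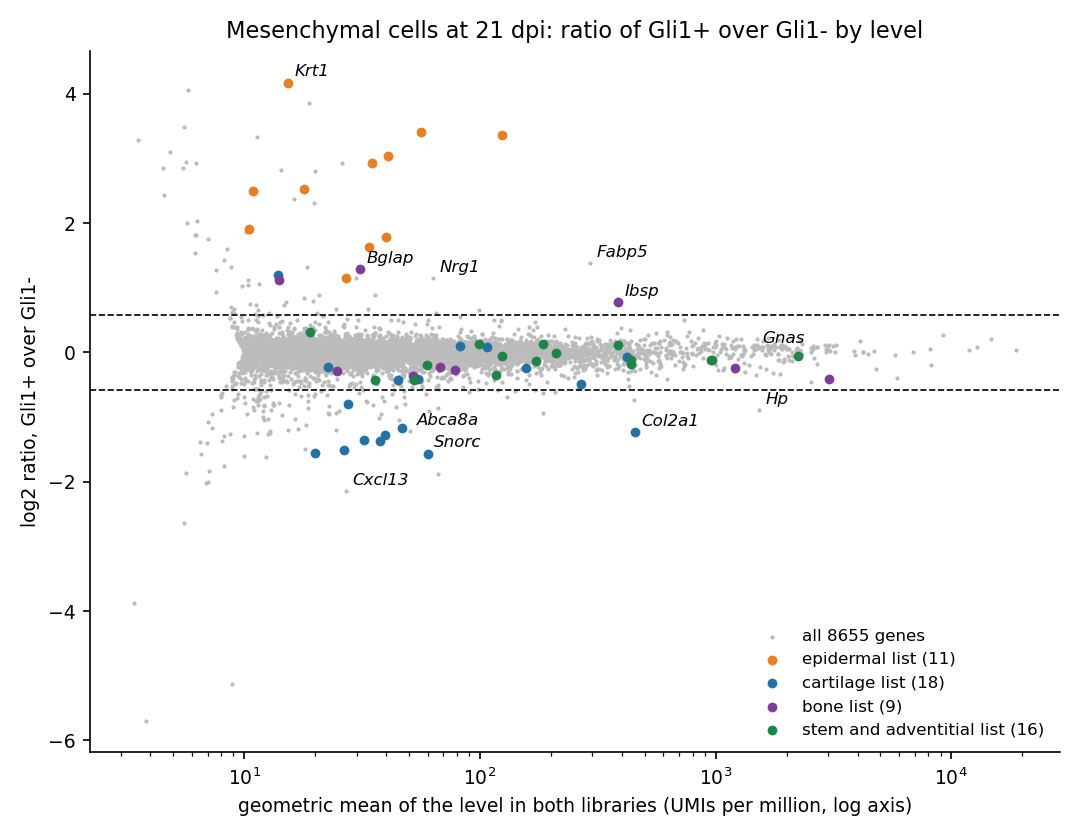
Each point is 1 of 8655 genes in mesenchymal cells at 21 dpi, with the geometric mean of its level in both libraries (CPM, log axis) against the log2 ratio of *Gli1*+ over *Gli1*-, and dashed lines at 0.58 either way. The 11 epidermal genes all sit above the upper line, 9 of 18 cartilage genes sit below the lower line, and the 16 stem and adventitial genes all lie between the lines.

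Markers of other cell types moved with the sorts and are given before the genes they touch. The 11 tested epidermal genes were all higher in *Gli1*+ cells, with a median log2 ratio of 2.53, and their list summed to 1126 CPM against 164 CPM. Cells with at least 1% epidermal UMIs numbered 92 of the *Gli1*+ and 10 of the *Gli1*- cells and held 71.1% and 46.8% of these UMIs. Without them the list still summed to 337 and 87.4 CPM. A UMI of *Krt5*, *Krt14*, *Krt1* or *Krt10* was held by 4418 *Gli1*+ and 1664 *Gli1*- cells. The alternative without cells holding any keratin UMI, used below, therefore kept 1387 and 3962 cells, unequal parts of the sorts. *Krt14*, a keratin of basal skin, was seen in 16.5% of *Gli1*+ and 2.03% of *Gli1*- mesenchymal cells and in 18.8% and 3.43% of the endothelial cells of the same libraries, with each cell thinned to 2000 UMIs. The opposite direction was seen for vessel genes. Of 5 tested vascular endothelial genes 4 were lower in *Gli1*+ cells (list sum 40.7 against 112 CPM, with *Cdh5* at 0 by the rule), as were 5 of 9 pericyte and smooth muscle genes (276 against 423 CPM) and both tested hemoglobin genes (erythroid sum 2.60 against 96.6 CPM). Immune markers summed to 163 and 243 CPM, nearly all *Srgn* (149 and 231 CPM), a granule proteoglycan gene that is not confined to leukocytes. Lymphatic (6.12 and 18.3 CPM), Schwann (47.1 and 71.4 CPM), muscle (14.97 and 14.6 CPM), adipocyte (6.21 and 5.03 CPM) and osteoclast (863 and 727 CPM) lists made up the rest. The part of these cells in the ratios below was not tested.

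Secreted immune and stress genes were among those lower in *Gli1*+ cells. *Cxcl13* (ENSMUSG00000023078), the chemokine that draws B cells, stood at 12.8 CPM in *Gli1*+ and 56.9 CPM in *Gli1*- cells, 4.44-fold lower (log2 ratio -2.15, interval -2.26 to -2.04). It was the lowest ratio of the named genes. Thinned to 2000 UMIs, 0.875% of *Gli1*+ and 3.06% of *Gli1*- cells held a *Cxcl13* UMI, against 0% and 0.594% of endothelial cells. The gene was carried by few cells, since the richest 1% of cells held 94.1% of its UMIs in the *Gli1*+ and 80.4% in the *Gli1*- library. *Hp*, which encodes haptoglobin, a hemoglobin-binding acute-phase protein, stood at 1121 and 2085 CPM (log2 ratio -0.89, interval -0.91 to -0.88) and was seen in 24.5% and 36.9% of thinned cells, above the 10.9% and 18.6% of endothelial cells. In those endothelial cells *Hp* stood at 69.4 and 410 CPM. The background thus moved with the sort in the same direction, and its part in the ratio was not tested.

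Of 16 tested members of the acute-phase and interleukin 6 list 3 were past the fold, all lower in *Gli1*+ cells: *Hp*, the siderophore-binding *Lcn2* (169 and 259 CPM, log2 ratio -0.62) and *Saa1* (8.79 and 14.8 CPM, -0.75). The call of *Lcn2* was lost in 4 of 15 alternatives (down to -0.37, with *Gli1*- cells weighted to the *Gli1*+ classes) and that of *Saa1* in 3 (down to -0.51), while *Hp* passed in all 15. The list ranged from -0.89 to 0.49 with a median log2 ratio of -0.20, against 0.00 over all genes. *C3*, the central complement component, stood at 359 and 517 CPM (-0.53), within the fold. *Saa3*, an acute-phase apolipoprotein made by stromal cells, was the most abundant of the list and stood at 5162 and 6769 CPM (-0.39), also within it, and was singled out after its values were seen. Cells with at least 3 *Saa3* UMIs after thinning made up 15.4% of *Gli1*+ and 19.5% of *Gli1*- mesenchymal cells, a difference of -4.13 percentage points (interval -5.54 to -2.71). Without thinning the gate held 25.2% and 43.2%, a difference of -18.0 percentage points. In endothelial cells the same gate held 0.660% and 6.27% with thinning and 4.86% and 27.3% without, so that the background also moved with the sort, and its part in the difference was not tested. Among the other immune lists, 11 of 12 chemokines, all 10 complement genes and all 9 interferon-stimulated genes lay within the fold, with medians of -0.11, -0.12 and -0.30. Over all tested genes 2.3% were past it.

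Of the 15 lowest ratios, 6 belonged to genes of neither the cartilage nor the immune lists. *Abca8a* (ENSMUSG00000041828), a lipid transporter of the ABC family, stood at 33.2 and 77.1 CPM, a log2 ratio of -1.21 (interval -1.29 to -1.14). It was spread over many cells, with a UMI in 7.98% and 15.01% of thinned mesenchymal cells and in 1.32% and 2.57% of endothelial cells. *Htra4*, a secreted serine protease and a member of the tendon list, stood at 11.2 and 25.4 CPM (-1.19), and *Sorcs1*, a sorting receptor, at 31.7 and 65.2 CPM (-1.04). *Ednrb*, a receptor for endothelins (16.1 and 37.0 CPM), *Notch3* (11.6 and 23.5 CPM) and the TNF family ligand gene *Tnfsf8* (12.4 and 27.1 CPM) had ratios of -1.20, -1.02 and -1.12. These last genes were more frequent in endothelial cells, which held *Ednrb* in 8.91% and 7.33% of thinned cells against 1.31% and 2.90% of mesenchymal cells, and *Notch3* is also a marker on the pericyte list.

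The genes higher in *Gli1*+ cells included signaling and patterning genes. *Robo2* (ENSMUSG00000052516), a receptor for Slit guidance cues, stood at 44.6 CPM in *Gli1*+ and 20.003 CPM in *Gli1*- cells, 2.23-fold higher (log2 ratio 1.16, interval 1.06 to 1.25). *Nrg1*, the ErbB ligand neuregulin, stood at 94.5 and 42.6 CPM (1.15, interval 1.09 to 1.22). Both were above endothelial cells as shares of thinned cells. *Robo2* was seen in 6.16% and 2.66% of mesenchymal against 1.65% and 1.25% of endothelial cells, and *Nrg1* in 7.54% and 4.22% against 1.65% and 0.528%. In all other kept cells *Nrg1* stood at 237 CPM in the *Gli1*+ library, above its mesenchymal level, and at 32.6 CPM in the *Gli1*- library, below it. *Robo2* stood there at 33.5 and 10.8 CPM, below its mesenchymal levels. The part of those cells in the ratios was not tested. *Crabp1*, which binds retinoic acid in the cytoplasm, stood at 48.8 and 26.3 CPM (0.89) and the homeobox gene *Irx5* at 25.7 and 14.8 CPM (0.79, interval 0.68 to 0.91). *Col7a1*, the anchoring fibril collagen under epithelia, stood at 30.9 and 19.5 CPM (0.67), *Angptl7* at 124 and 79.1 CPM (0.65) and *Kera*, the corneal and tendon proteoglycan keratocan, at 42.3 and 26.5 CPM (0.67). With *Gli1*- cells weighted to the *Gli1*+ classes *Kera* was 0.48 and *Angptl7* 0.51, both within the fold, and *Kera* was also within it at 2 *Pdgfra* UMIs or more. Without the cells at 1% epidermal UMIs or more the log2 ratio of *Nrg1* was 0.67 and that of *Robo2* 1.16, both past the fold. Over all alternatives the lowest ratio was 0.59 for *Nrg1*, barely past the fold, and 1.10 for *Robo2*.

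Of the Wnt list 3 of 16 tested members were higher and 1 was lower, with a median log2 ratio of 0.11. Over all tested genes 2.3% were past the fold. The secreted inhibitor *Wif1* stood at 25.3 and 16.5 CPM (0.62) and *Axin2*, a feedback target of the pathway, at 13.7 and 8.15 CPM (0.75). In endothelial cells *Axin2* stood at 13.8 and 3.38 CPM, a difference in the same direction whose part was not tested. The ligand *Wnt4* (10.5 and 3.62 CPM, 1.53) was one of the genes far higher in the other kept cells, and the agonist *Rspo2* was lower (9.24 and 14.5 CPM, -0.65). None of these 4 calls held in all 15 alternatives. *Wif1* was 0.42 at 2 *Pdgfra* UMIs or more, *Axin2* was 0.46 and *Wnt4* -0.23 without cells holding any keratin UMI, and *Rspo2* was within the fold in 3 alternatives (down to -0.29). In the insulin-like growth factor list 1 of 10 tested members was past the fold, against 2.3% of all tested genes. This was *Igfbp2*, a binding protein, at 19.3 and 5.31 CPM (1.86). It was seen in 1.26% and 0.525% of thinned mesenchymal cells and in 1.65% and 0.528% of endothelial cells, so that its share of cells was at background.

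The top of the ranking held genes of stratified epithelium. *Krt16*, a keratin of activated skin, stood at 53.0 and 7.58 CPM (2.80), the lipid-binding *Fabp5* at 472 and 182 CPM (1.38) and the transcription factor *Klf5* at 29.1 and 11.7 CPM (1.32). Their ratios without the cells at 1% epidermal UMIs or more were 2.82, 0.63 and 0.73, and without cells holding any keratin UMI *Fabp5* was 0.38, within the fold. As shares of thinned cells *Fabp5* and *Klf5* were at or below endothelial cells, with 20.2% and 13.2% of mesenchymal against 38.9% and 32.0% of endothelial cells for *Fabp5*. Endothelial cells held *Fabp5* at 700 and 349 CPM, above the mesenchymal levels. They therefore give no background for this gene, and the source of its RNA was not tested.

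**Figure D2:**
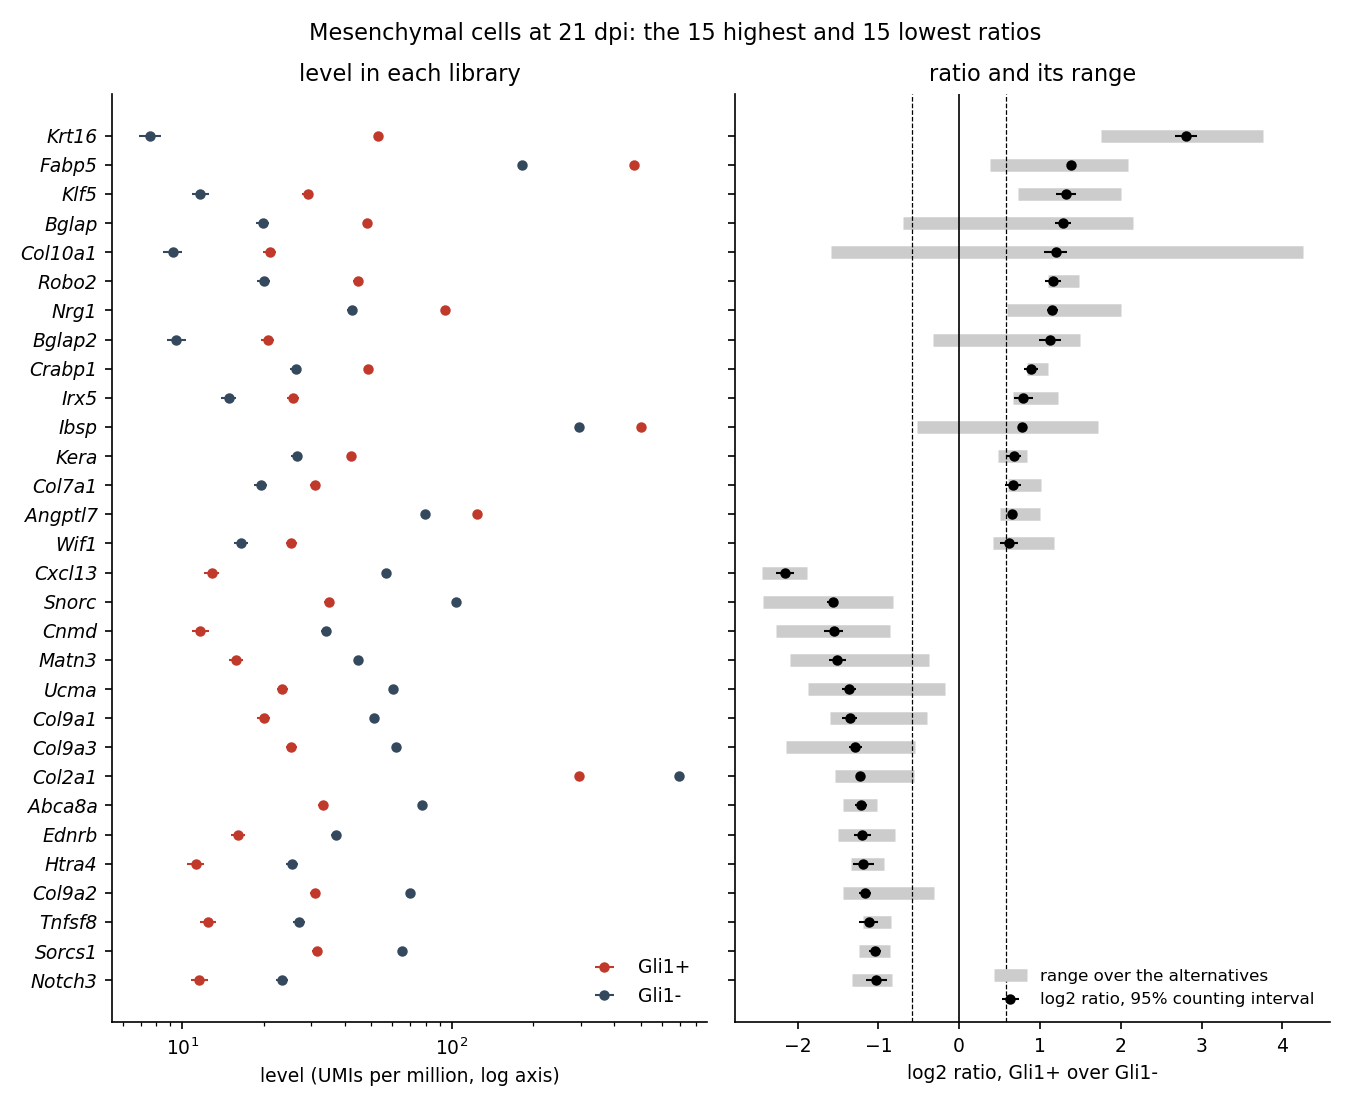
For the 15 highest and 15 lowest ratios, the left panel gives the level in each library (CPM, log axis, with Poisson interval) and the right panel the log2 ratio with its counting interval over a grey bar for the range across the alternative settings. *Cxcl13*, *Abca8a*, *Robo2* and *Irx5* keep to one side of both dashed lines at 0.58, while the bars of *Bglap*, *Col10a1* and *Ibsp* cross 0.

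Cartilage matrix genes were lower in the *Gli1*+ cells. Of 18 tested members of the cartilage list 9 were lower and 1 was higher, with a median log2 ratio of -0.64. Over all tested genes 2.3% were past the fold. *Col2a1*, the main collagen of cartilage, stood at 296 and 694 CPM (log2 ratio -1.23, interval -1.25 to -1.20). *Snorc*, a proteoglycan of chondrocytes, stood at 34.9 and 103 CPM (-1.56), *Cnmd*, the vessel-inhibiting chondromodulin, at 11.6 and 34.2 CPM (-1.55), and *Matn3*, a matrilin of growth cartilage, at 15.8 and 44.9 CPM (-1.51). The chains of collagen IX, which coat collagen II fibrils, went with them: *Col9a1* had a ratio of -1.35, *Col9a2* of -1.17 and *Col9a3* of -1.28. *Ucma*, a protein of upper zone cartilage, had -1.36 and *Col11a2* had -0.79. In endothelial cells of the *Gli1*+ and the *Gli1*- library *Snorc* stood at 15.8 and 88.5 CPM, *Cnmd* at 2.84 and 25.8 CPM, *Matn3* at 13.8 and 38.1 CPM and *Col9a1* at 8.93 and 44.9 CPM. The background thus differed between the libraries in the same direction, and its part in these ratios was not tested. The transcription factor genes of the lineage lay within the fold, *Sox9* at 85.3 and 79.5 CPM (0.10), *Sox5* at 226 and 317 CPM (-0.49) and *Sox6* at 21.1 and 24.6 CPM (-0.23), and so did *Acan*, the large proteoglycan of cartilage (145 and 171 CPM, -0.24). Those 4 genes were chosen after their values were seen.

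Most *Col2a1* UMIs lay in few cells. Cells with at least 10 *Col2a1* UMIs numbered 94 of the *Gli1*+ and 140 of the *Gli1*- mesenchymal cells, with medians of 74 and 118.5 UMIs, and 1% of the cells held 91.3% and 82.3% of the gene's UMIs. Of all kept cells 234 of 10695 (2.19%) and 311 of 12042 (2.58%) were this rich, so that 40.2% and 45.0% of them passed the mesenchymal rule and the rest did not. Over all kept cells the log2 ratio of *Col2a1* was -0.72. With cells of at least 10 UMIs of *Col2a1*, *Ibsp* or *Bglap* left out, a choice that removes cells by *Col2a1* itself, 4 of the 9 lower cartilage genes stayed past the fold, *Col2a1* at -1.05, *Snorc* at -1.66, *Cnmd* at -1.19 and *Col9a3* at -0.87. The other 5 did not, *Col9a1* at -0.40, *Matn3* at -0.38, *Ucma* at -0.17, *Col9a2* at -0.31 and *Col11a2* at -0.36. With *Prrx1* in place of *Pdgfra* the calls of *Col9a2*, *Col9a3* and *Col11a2* were lost (-0.56, -0.54 and -0.34). Thinned to 2000 UMIs, 4.50% of *Gli1*+ and 9.07% of *Gli1*- mesenchymal cells held a *Col2a1* UMI, against 4.95% and 7.92% of endothelial cells, in which the gene stood at 138 and 644 CPM. For *Col2a1*, shares of cells with a UMI are thus close to background. At 3 UMIs or more the shares were 1.29% and 2.32%, a difference of -1.02 percentage points (interval -1.54 to -0.52), against 0.660% and 1.19% of endothelial cells, and without thinning 2.93% and 4.69%. The part of this RNA outside its own cells was not tested. With the *Gli1*- cells weighted to the *Gli1*+ mix of marker classes the ratio was -0.56, within the fold.

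A few bone matrix genes were higher in *Gli1*+ cells. Of 9 tested members of the bone list 3 were past the fold, all higher, against 2.3% of all tested genes. The list's median log2 ratio was -0.24 and its summed level was lower, at 4543 against 5397 CPM. *Ibsp*, bone sialoprotein, stood at 504 and 295 CPM (0.77, interval 0.75 to 0.80), *Bglap* at 48.2 and 19.8 CPM (1.28, interval 1.19 to 1.38) and *Bglap2*, its near-identical neighbor with which reads can be split, at 20.7 and 9.50 CPM (1.12). *Col10a1* of the cartilage list stood at 21.1 and 9.21 CPM (1.19, interval 1.05 to 1.34). *Runx2*, the factor that starts the bone program, stood at 71.0 and 85.9 CPM (-0.27), *Spp1*, osteopontin, at 1117 and 1317 CPM (-0.24) and *Alpl*, the phosphatase of mineralizing cells, at 22.4 and 27.2 CPM (-0.28), all within the fold. *Runx2*, *Spp1* and *Alpl* were chosen after their values were seen.

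Most UMIs of the higher bone genes lay in few cells. The single richest *Gli1*+ cell held 1255 *Bglap* UMIs, 39.5% of the library's total, and the richest 3 held 79.3%. In the *Gli1*- library the richest cell held 562, or 46.0%. *Col10a1* passed 10 UMIs in 4 cells of each library, with up to 587 and 282 UMIs. *Ibsp* passed 10 UMIs in 88 and 90 mesenchymal cells, with medians of 59 and 48.5, and the 10 richest held 63.4% and 58.2% of its UMIs. The numbers of such cells were therefore close, and the amounts in the richest of them were not. With cells of at least 10 UMIs of *Col2a1*, *Ibsp* or *Bglap* left out, a choice that removes cells by the genes then compared, the rest had the opposite direction, with log2 ratios of -0.52 for *Ibsp*, -0.70 for *Bglap*, -0.33 for *Bglap2* and -1.58 for *Col10a1*. The call of *Ibsp* was also lost at 2 *Pdgfra* UMIs or more (0.38), with each cell at equal weight (0.52) and with thinned cells (0.46). *Bglap* and *Bglap2* were within the fold with *Prrx1* in place of *Pdgfra* (0.55 and 0.44) and over all kept cells (0.55 and 0.39), and *Bglap2* without the cell filters (0.27). *Col10a1* had the opposite direction with *Prrx1* in place of *Pdgfra* and over all kept cells (-0.23). So did *Bglap* without cells holding any keratin UMI. The gate of at least 3 *Ibsp* and *Bglap* UMIs together held 1.38% and 1.59% of thinned cells, a difference of -0.21 percentage points whose interval of -0.68 to 0.25 holds 0, against 0.330% of endothelial cells in both libraries. Without thinning it held 2.31% and 2.93%. In endothelial cells *Ibsp* stood at 14.2 and 317 CPM, the latter above the *Gli1*- mesenchymal level, *Bglap* at 0.812 and 3.83 CPM and *Col10a1* at 0 and 52.8 CPM, each lower in the *Gli1*+ library. Few *Gli1*- endothelial cells carried most of this RNA. The 1844 cells held 4223 *Ibsp* UMIs, but 17 of them were in the gate without thinning. The 703 *Col10a1* UMIs lay in 1.46% of them. Thinned shares of cells with an *Ibsp* UMI, 3.83% and 4.74% of mesenchymal and 3.30% and 4.03% of endothelial cells, were close to background. Within the *Ibsp* and *Bglap* gate, 79 and 88 cells, *Bglap* stood at 3043 and 1009 UMIs and *Ibsp* at 32187 and 16941 UMIs, log2 ratios of 1.55 and 0.89. This gate chooses cells by the genes then compared, and its sums rest on the same few richest cells. These ratios are therefore no separate result.

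**Figure D3:**
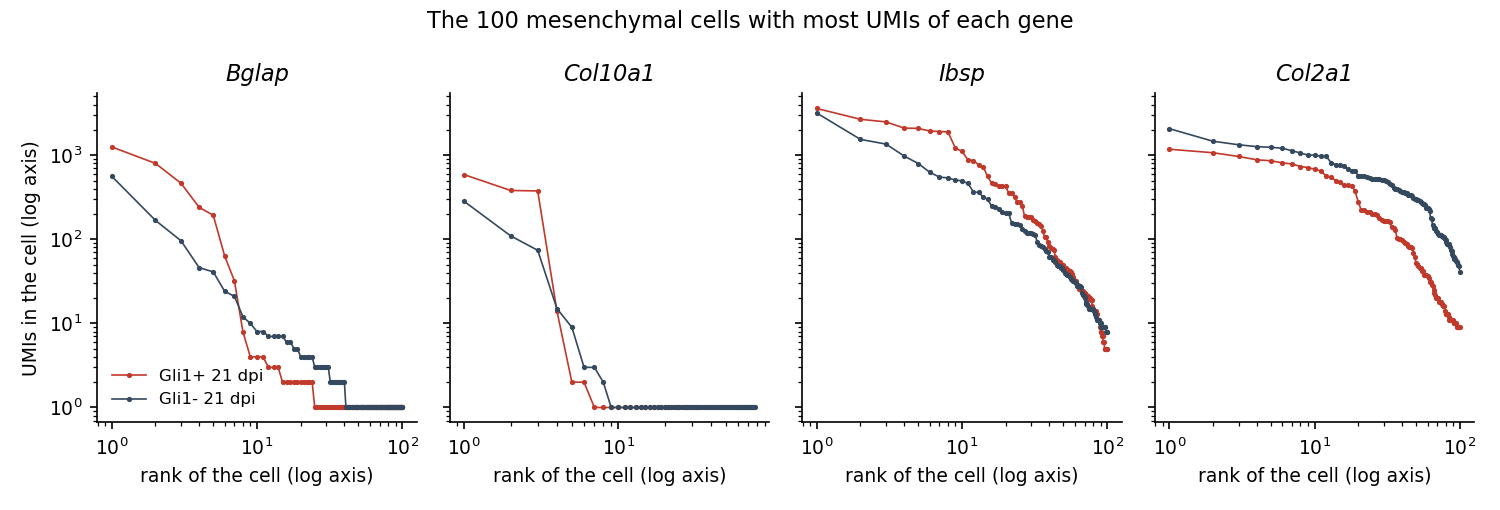
The 100 mesenchymal cells with most UMIs of *Bglap*, *Col10a1*, *Ibsp* and *Col2a1* in each library, with the rank of the cell against its UMIs (both log axes). The *Gli1*+ curve of *Bglap* starts at 1255 UMIs and falls to 4 UMIs by the 10th cell, and the *Col2a1* curve of *Gli1*- cells, which starts at 2070 UMIs, lies above that of *Gli1*+ cells, which starts at 1179 UMIs.

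Among cells that passed the mesenchymal rule, most tendon genes were close in both sorts. Of 16 tested members 1 was higher (*Kera*) and 2 were lower, *Htra4* and *Prg4*, the lubricin of gliding surfaces (348 and 581 CPM, log2 ratio -0.74, and -0.46 with *Prrx1* in place of *Pdgfra*). The list's median was 0.16, and 2.3% of all tested genes were past the fold. The tendon factor *Scx* stood at 55.3 and 39.8 CPM (0.47), *Tnmd*, a membrane protein of mature tenocytes, at 198 and 166 CPM (0.25) and *Col1a1*, the chief tendon collagen, at 15889 and 13763 CPM (0.21). *Scx*, *Tnmd* and *Col1a1* were chosen after their values were seen. Thinned cells with *Scx* and at least 3 *Fmod* UMIs, a tenocyte-type gate, made up 3.20% of *Gli1*+ and 2.21% of *Gli1*- cells, a difference of 0.99 percentage points (interval 0.38 to 1.61), against 1.32% and 0.792% of endothelial cells. Without thinning it held 17.4% and 14.0%. Of all kept cells, 901 of 10695 (8.42%) in the *Gli1*+ and 677 of 12042 (5.62%) in the *Gli1*- library held at least 10 *Tnmd* UMIs. Of these, 45.6% and 47.0% passed the mesenchymal rule, and the rest lie outside the ratios given here. Among mesenchymal cells 7.08% and 5.65% were this rich.

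None of the 16 tested stem and adventitial markers was past the fold, against 2.3% of all tested genes. At that share a list of this size can hold none. The median log2 ratio of these markers was -0.12, with *Fn1* at 2194 and 2283 CPM (-0.06) and *Ly6a*, the stem cell antigen Sca-1, at 922 and 1002 CPM (-0.12). Cells with *Pi16* or *Dpp4*, which mark adventitial fibroblasts, made up 36.5% of thinned *Gli1*+ and 37.3% of *Gli1*- cells, a difference of -0.80 percentage points (interval -2.60 to 0.997), with both shares well above the 4.29% and 8.32% of endothelial cells. This difference was -2.20 without Scrublet doublets, -2.23 in cells with *Xist* and no Y-linked UMI, -1.28 at 2 *Pdgfra* UMIs or more and -1.26 with *Prrx1* in place of *Pdgfra*. Cells with *Tppp3* and *Ly6a* but neither of those 2 genes, a sheath progenitor type gate, made up 5.33% and 8.00%, a difference of -2.67 percentage points (interval -3.61 to -1.74). Endothelial cells, at 3.96% and 6.60%, differed in the same direction. Without thinning these gates held 55.9% and 59.1% and 10.7% and 11.9% of mesenchymal cells. Cells with *Mki67* or *Top2a*, which dividing cells express, made up 2.17% and 1.90%, below the 4.29% and 4.42% of endothelial cells, and 7.201% and 5.95% without thinning.

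**Figure D4:**
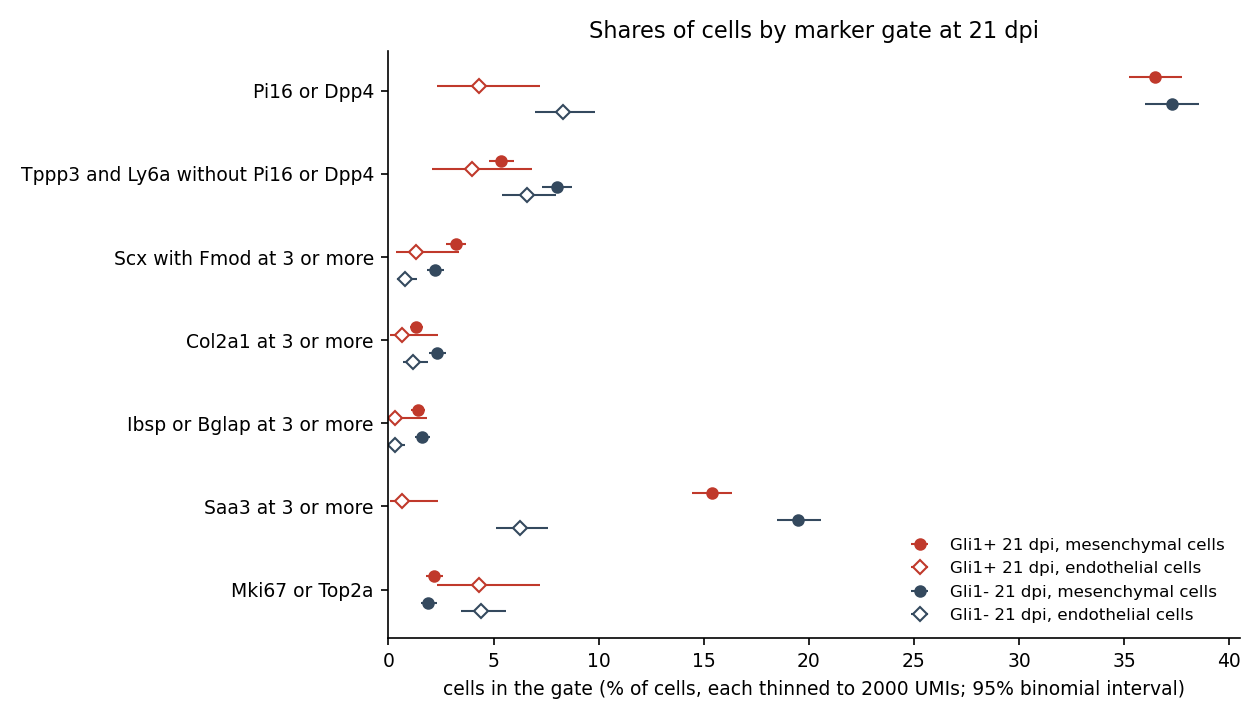
Shares of cells in each marker gate at 21 dpi (% of cells, each thinned to 2000 UMIs, with binomial intervals), for mesenchymal cells (filled circles) and endothelial cells as background (open diamonds) of both libraries. In percentage points the *Saa3* gate parts the mesenchymal cells of the sorts most, at 15.4% and 19.5%, with endothelial cells at 0.660% and 6.27%. The *Pi16* or *Dpp4* gate differs by -0.80 percentage points.

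Hedgehog genes were at like levels. *Gli1* itself had 240 UMIs in the *Gli1*+ and 255 in the *Gli1*- cells, 3.64 and 4.14 CPM, below the 10 CPM needed for a call (log2 ratio -0.18, interval -0.44 to 0.08). Its transcript was seen in 1.14% and 1.16% of thinned mesenchymal and 1.65% and 0.396% of endothelial cells, so the labelled and unlabelled cells were not parted by present *Gli1* RNA at this depth. The reporter transcript was not analysed here. None of the 9 tested pathway members was past the fold, against 2.3% of all tested genes, with a median of -0.04. The co-receptor gene *Gas1* stood at 474 and 471 CPM (0.01) and *Cdon* at 99.1 and 99.9 CPM (-0.01), and the receptor gene *Ptch1*, named after its values were seen, at 23.0 and 25.4 CPM (-0.15).

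The cyclic AMP pathway, which the study followed by *Gnas* and protein kinase A, also lay within the fold. The study picked *Gnas* by comparing tendon progenitor clusters of an earlier published dataset. Its staining for GNAS and phosphorylated protein kinase A substrate compared injured with uninjured tendon. It reported GNAS in osteochondral cells both with and without GLI1. The study also plotted *Gnas* RNA in *Gli1*+ and in *Gli1*- lineage cells, for which its text gives no ratio. In its mice HO was reduced by a Gs alpha antagonist, by loss of *Prkaca* in *Gli1*+ cells and by a CREB inhibitor. The ratios given here are no test of those results. None of the 22 tested members was past the fold, against 2.3% of all tested genes, and their median was -0.10. At that share a list of this size can hold none. Members included *Gnas*, the stimulatory G protein subunit (1514 and 1457 CPM, 0.05), the phosphodiesterase gene *Pde4d* (602 and 637 CPM, -0.08) and the CREB factors. A list of *Gnas* with 4 ossification genes that the study named beside it had 3 members at 10 CPM or more, *Gnas* itself, the growth factor gene *Mdk* (190 and 164 CPM, 0.21) and its relative *Ptn* (203 and 146 CPM, 0.48), none of them past the fold. A list of 3 can also hold none at a share of 2.3%.

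Other matrix, growth factor and adhesion lists held at most 2 members past the fold, against 2.3% of all tested genes. Of 10 fibrillar collagens 1 was lower (*Col11a2*), of 14 other collagens 1 was higher (*Col7a1*), and of 14 small leucine-rich proteoglycans *Kera* was higher and *Omd*, osteomodulin, lower (10.1 and 17.3 CPM, -0.78). *Bmp5* was the 1 of 21 BMP genes past the fold (13.1 and 20.5 CPM, -0.65), *Mmp12*, the macrophage elastase, the 1 of 21 metalloproteinase genes (9.002 and 14.5 CPM, -0.69), *Actg2* the 1 of 13 contractile genes (6.36 and 10.02 CPM, -0.66), and *Notch3* the 1 of 4 Notch genes. Of 10 cell cycle genes *Pclaf* was higher (11.04 and 7.14 CPM, 0.63), and of 11 integrins *Itga6* was higher (0.89, also a gene of other cells) and *Itga1* lower (35.5 and 53.0 CPM, -0.58). Of these calls, *Itga1* passed the fold in 6 of 15 alternatives, *Omd* in 8, *Pclaf* in 8, *Itga6* in 10 and *Col11a2* in 11. *Itga6* also turned to -0.14 without cells holding any keratin UMI. *Col7a1* and *Notch3* passed in 15, and *Kera*, *Bmp5*, *Mmp12* and *Actg2* in 13. No member was past the fold among the tested genes of wound matricellular proteins (15), TGF beta (15), PDGF and FGF (13), limb position factors (20), glycolysis (17), collagen secretion (15), immediate early and heat shock genes (24), the clock (14), angiogenic signals (11), hyaluronan (8) or the RANKL axis (3).

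Within classes of mesenchymal cells set by the same markers, some of these differences were general and others were not. Each thinned cell was put in the first class it met, in the order *Ibsp* or *Bglap*, *Col2a1*, *Saa3*, *Pi16* or *Dpp4*, *Tppp3* with *Ly6a*, and *Scx* with *Fmod*, and 2444 and 2035 cells met none. *Abca8a* was lower in *Gli1*+ cells in all 7 classes, with log2 ratios from -2.04 to -0.88, and the interval held 0 in the tenocyte class, with 11 and 12 UMIs. *Htra4* was also lower in all 7, from -1.62 to -0.34, with intervals that held 0 in the cartilage and tenocyte classes. *Irx5* was higher in all 7, from 0.11 to 1.09, with intervals that held 0 in the bone, cartilage and tenocyte classes. *Cxcl13* was lower by -3.80 in the *Pi16* or *Dpp4* class and by -3.06 in cells of no class, but stood at 495 and 470 UMIs in the *Saa3* class, a ratio of 0.28 (interval 0.09 to 0.46). *Hp* was lower in 6 classes, from -1.92 to -0.62, and higher by 0.24 in the bone class. *Robo2* was higher in the *Saa3*, *Pi16* or *Dpp4*, *Tppp3* with *Ly6a* and *Scx* with *Fmod* classes and in cells of no class (0.68 to 1.56), and had -0.80 and -1.99 in the bone and cartilage classes, from 33 and 56 UMIs and from 3 and 23 UMIs. The *Col2a1* class is chosen by *Col2a1* itself, so the ratio of that gene there is no separate result. *Col2a1* had a log2 ratio of -0.42 in its own class, where 59 and 108 cells held 12794 and 32954 UMIs, and -0.51 in the bone class. The classes after these hold only cells under 3 thinned *Col2a1* UMIs, and the gene stood there at 13.6 to 56.9 CPM. This cut bounds the level, and endothelial cells (138 and 644 CPM) had no such cut, so their level is no measure of background there. No difference is read from these classes.

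The same contrast was taken in the libraries of uninjured tendon and of 7 dpi, which came from other mice. Past the fold were 3.32% of 8940 genes higher and 2.42% lower at 7 dpi, and 13% of 9392 higher and 8.11% lower in uninjured tendon. Of the 15 highest genes at 21 dpi, 11 reached 10 CPM at 7 dpi, where 10 were past the fold in the same direction and *Ibsp* in the opposite one, and 11 did so in uninjured tendon, where 10 were in the same direction and none opposite. The epidermal markers moved with the sort at 7 dpi as well, with *Krt14* at 1697 and 34.3 CPM (5.63), and the 10 genes include *Krt16*, *Fabp5*, *Klf5* and *Nrg1*. Their part in these ratios was not tested. Of the 15 lowest, 9 reached 10 CPM at 7 dpi and all 9 were lower there, and 6 did so in uninjured tendon, where 3 were lower and 2 higher. *Cxcl13* had log2 ratios of -2.82 at 7 dpi and -3.46 in uninjured tendon, and *Abca8a* -1.48 and -1.25. *Robo2* had 1.68 and 1.46, *Crabp1* 1.57 and 3.14, *Irx5* 1.06 and 4.20 and *Kera* 1.03 and 3.86. *Col2a1* was lower at 7 dpi (-2.32) and higher in uninjured tendon (5.63, at 39.9 and 0.804 CPM). Cells with Y-linked UMIs and no *Xist* made up 78.1% and 78.4% of the 7 dpi mesenchymal cells but 0.0861% and 0.0355% of those at 21 dpi, so time and sex cannot be told apart between these pairs. The uninjured sorts also differed in sex from each other, since cells with *Xist* and no Y-linked UMI made up 63.5% of *Gli1*+ and 0% of *Gli1*- mesenchymal cells there, and the label and the sex cannot be told apart in that pair.

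**Figure D5:**
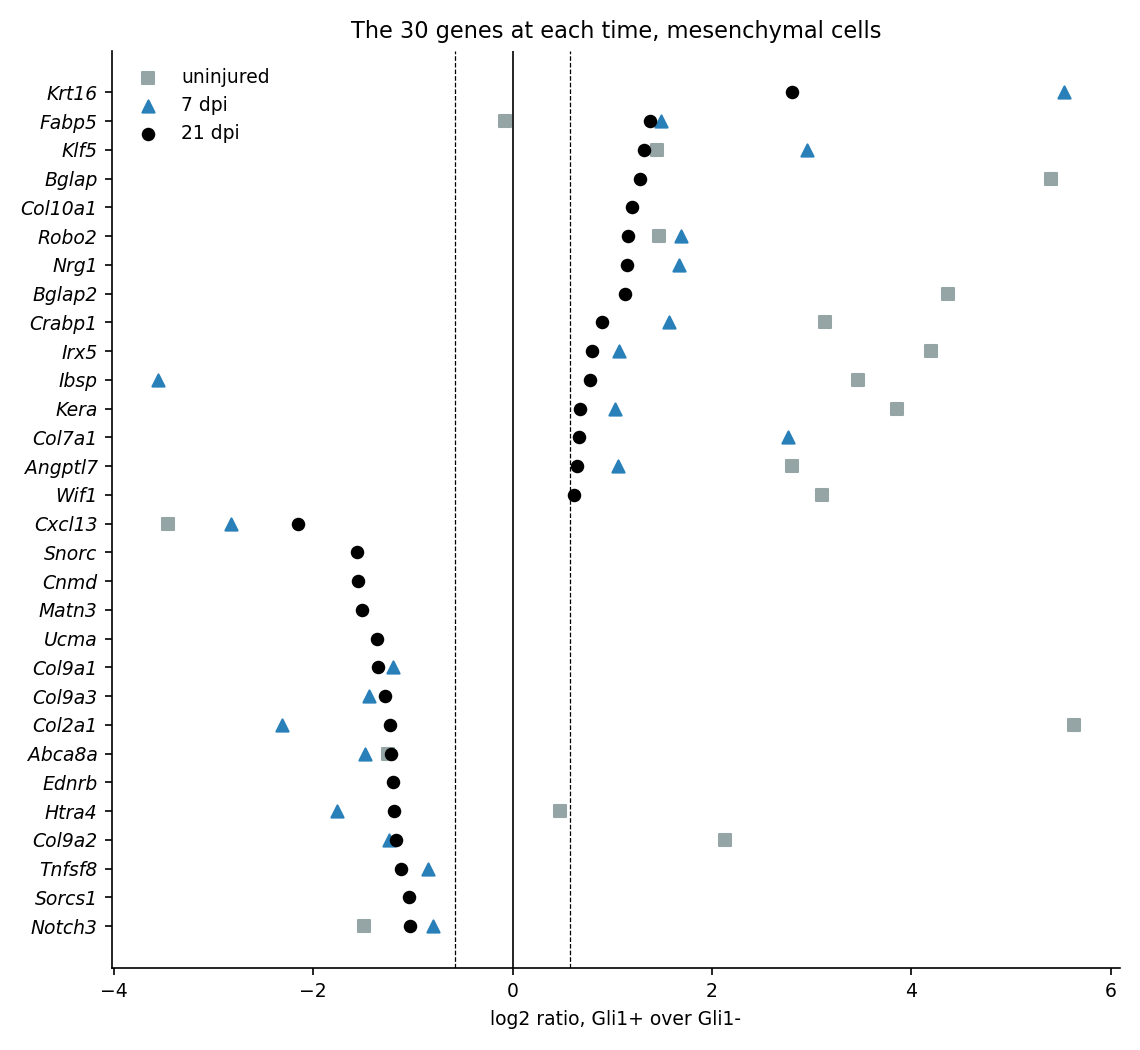
Log2 ratio of *Gli1*+ over *Gli1*- in mesenchymal cells for the 15 highest and 15 lowest genes of 21 dpi (black circles), with the same ratio at 7 dpi (blue triangles) and in uninjured tendon (grey squares) where a library reached 10 CPM. *Cxcl13* and *Abca8a* lie left of the lower dashed line at all 3 times, *Robo2*, *Crabp1*, *Irx5* and *Kera* lie right of the upper one, and *Col2a1* lies on both sides.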

How the data were processed

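Cells of Achilles tendon were sorted into *Gli1*+ and *Gli1*- fractions and measured by scRNA-seq with Chromium v3 kits, 1 library for each sort and time. The authors deposited raw counts, the UMIs of 33696 genes in each barcode called a cell, without normalization. The submitters' processing notes name Cell Ranger 3.1.0, STAR and mm10, while the file headers name cellranger 9.0.0. Barcodes were filtered and mesenchymal cells chosen as given above. Doublets were kept, and Scrublet in scanpy 1.11.5, used in an alternative, marked 8.56% of the kept *Gli1*+ and 9.63% of the kept *Gli1*- cells. The mesenchymal cells of both libraries shared 10 barcode sequences. UMIs were summed over cells and divided by their total (CPM). For the alternative with TMM scaling, edgeR 4.0.16 under R 4.3.3 was used; the rest ran in Python 3.11.15. Intervals cover counting error only, at 95%. Genes were named by rule: the 15 highest and 15 lowest ratios at 20 CPM or more, without genes at 4 times or more in other kept cells and without mitochondrial, ribosomal, hemoglobin, sex-linked, receptor segment and unnamed gene models, plus the list members past 0.58, or otherwise the 2 with most UMIs, and *Gli1*. Genes past the fold at 20 CPM or more that stood 4 times or more higher in other kept cells were set apart, but were counted among the named genes in the alternatives. The members and lists were chosen with earlier results of these data known. Tested on simulated data with 8655 genes, all 200 changed genes were recovered past the fold, and intervals held the true ratio for 93.5% of changed and 95.2% of unchanged genes. The simulated counts were independent Poisson draws with planted ratios beyond the fold. They lack the crowding of UMIs in few cells and the background RNA of the real libraries, so this checks the computation only. Alternatives changed the cell filters, the mesenchymal rule, scaling, thinning, the CPM floor, doublets and epidermal cells. Promoter windows came from RefSeq, GRCm38.p6.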

Additional observations from a re-analysis of the deposited data

Results flagged for a closer look

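For 6 of the 72 named genes past the fold at 21 dpi the *Gli1*+ to *Gli1*- log2 ratio was past it in the opposite direction at another time. Only genes that reached 10 CPM in a library at that other time were counted. Genes below that level also turned, such as *Bglap* at 7 dpi (-2.07, from 1.23 and 5.14 CPM). The share of all genes that turned was not computed. The difference between times was not tested, since each sort and time was 1 library. At 7 dpi *Ibsp* had -3.56 (1.49 and 17.6 CPM) against 0.77 at 21 dpi, and the contractile gene *Actg2* had 0.73 against -0.66. Cells with Y-linked UMIs and no *Xist* made up 78.1% and 78.4% of the 7 dpi cells and 0.0861% and 0.0355% of the 21 dpi cells, so time and sex cannot be told apart here. In uninjured tendon *Col2a1* had 5.63 against -1.23, *Col11a2* 3.45 against -0.79, *Col9a2* 2.13 against -1.17 and *Prg4* 1.69 against -0.74, the last from 1648 and 512 CPM. The uninjured *Gli1*+ and *Gli1*- libraries also differed in the sex of their cells, which cannot be told apart from the label there.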

How the results depend on the processing

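Of 72 named genes past the fold, 63 kept their direction and 39 stayed past the fold in that direction under all alternatives, *Cxcl13*, *Abca8a*, *Robo2* and *Irx5* among them. All 3 counts include genes that stood 4 times or more higher in other kept cells. *Krt1*, *Lgals7*, *Flt1* and *Rgs5* are such genes among the 39, so the counts do not describe mesenchymal genes alone. Chosen after seeing the data were the alternatives with all kept cells, without cells at 1% epidermal UMIs or more, and without cells at 10 UMIs of *Col2a1*, *Ibsp* or *Bglap*. The last gave log2 ratios of -0.70 for *Bglap*, -0.33 for *Bglap2*, -1.58 for *Col10a1* and -0.52 for *Ibsp*. Without cells holding any keratin UMI, *Bglap* had -0.44, *Itga6* -0.14, *Krtdap* -0.092, *Pclaf* -0.17, *S100a8* -0.44 and *Wnt4* -0.23, and without cells at 1% epidermal UMIs or more *S100a8* had -0.25. *Col10a1* had -1.40 with *Prrx1* in place of *Pdgfra* and -0.23 in all kept cells. The 73 higher genes became 48 without cells holding any keratin UMI, a setting that kept 1387 of 5805 *Gli1*+ and 3962 of 5626 *Gli1*- cells. They became 42 without cells at 1% epidermal UMIs or more, 175 in all kept cells, 15 at a floor of 50 CPM and 2132 of 22637 without a floor. The 126 lower genes became 440, 32 and 2831 under the last 3. Without thinning the share differences were -3.20 percentage points for *Pi16* or *Dpp4*, -1.28 for *Tppp3* with *Ly6a*, 3.45 for *Scx* with *Fmod*, -1.76 for *Col2a1*, -18.0 for *Saa3* and 1.25 for *Mki67* or *Top2a*. With thinning, the *Col2a1* difference was -0.66 without Scrublet doublets and -0.59 with *Prrx1*, and that of *Mki67* or *Top2a* ran from -0.082 to 0.62 points. The *Tppp3* with *Ly6a* difference was -1.15 without the cell filters, -1.68 at 2 *Pdgfra* UMIs or more and -1.66 in cells with *Xist* and no Y-linked UMI, and the *Scx* with *Fmod* difference was 2.20 with *Prrx1*. Apart from what each alternative leaves out, the cause was not tested. No paired analysis was possible because each sort at each time was 1 library and no label ties cells to mice.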
